A study of Homo sapiens with 8 samples.

Results

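The RNA exosome subunit genes were EXOSC1, EXOSC2, EXOSC3, EXOSC4, EXOSC5, EXOSC7, EXOSC8, EXOSC9, EXOSC10 and DIS3, taken by gene name from the deposited intron tables. They made up 10 of the 15902 genes and 86 of the 142224 introns listed, and EXOSC6 was not analysed here. RNA came from SUM159, an immortalized breast cancer line of mesenchymal character, after 12 h with H3B-8800 or with the vehicle DMSO. H3B-8800 acts on SF3b, the part of the spliceosome that recognises the branch site of an intron. Each condition was sequenced as input RNA and as J2 RNA, the part pulled down by the J2 antibody, which recognises double-stranded RNA, with polyA selection and a strand-specific kit. The 4 groups were input with vehicle, input with drug, J2 RNA with vehicle and J2 RNA with drug, with 2 replicates each. No immunoprecipitation with a control antibody was analysed here, and all cells belong to 1 line. The labels do not say whether replicates came from separate cultures, so p-values measure only the spread between these libraries, which may be technical.

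The RNA exosome degrades RNA from its tail end, in the nucleus and in the cytoplasm, and in the nucleus it removes transcripts that were spliced or processed wrongly. Its core is a ring of catalytically inactive proteins (EXOSC4 to EXOSC9) under a cap of RNA-binding proteins (EXOSC1, EXOSC2 and EXOSC3), through which RNA is threaded. The cutting is done by the exonucleases EXOSC10, which is mainly nuclear, and DIS3, which also carries an endonuclease site.

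For each intron the tables give reads inside the intron (intronic reads) and a second count, and what the second holds beyond the first was read as reads that join both flanking exons (spliced reads). Both are given below as reads or as RPM, the reads scaled by the library depth used for the deposited RPKM values (47000000 to 57000000). Over all genes, intronic reads were 3.63% to 3.98% of the listed reads in the 4 vehicle libraries and 10.3% to 13.0% in the 4 drug libraries. The 2 J2 libraries with drug differed most from each other (chi-square per degree of freedom 14.8, against 2.85 to 4.32 in the other groups). Of 8 mesenchymal markers, 7 had a mean of at least 1 RPM (ZEB1 did not), against 2 of 8 luminal markers (GATA3 and KRT8) and 0 of the 3 immune markers listed (PTPRC was not analysed here). The luminal markers summed to 85.0 to 126 RPM over the libraries, the mesenchymal ones to 854 to 1122 RPM.

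The sequences below show where the reads of several members were counted. They were read from GENCODE 29 transcripts on GRCh38, and intron letters were available only where an annotated exon of the same gene covers them. The closing bases of an intron, its 3′ splice site, come first, 5′ to 3′, with the final AG in capitals. The ratio of intronic to spliced reads rose with drug in the input for the EXOSC1, EXOSC8 and EXOSC10 introns, while the EXOSC9 intron did not pass the test.
EXOSC1 intron 1, minus strand, chr10:97445848-97445897: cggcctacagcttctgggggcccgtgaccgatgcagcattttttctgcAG
EXOSC8 intron 4, plus strand, chr13:37004466-37004515: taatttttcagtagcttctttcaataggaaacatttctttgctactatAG
EXOSC10 intron 16, minus strand, chr1:11076949-11076998: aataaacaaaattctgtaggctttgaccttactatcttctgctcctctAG
EXOSC10 intron 20, minus strand, chr1:11070974-11071023: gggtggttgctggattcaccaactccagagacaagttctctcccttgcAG
EXOSC9 intron 1, plus strand, chr4:121801777-121801826: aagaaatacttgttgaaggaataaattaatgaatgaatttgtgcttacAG
C and T made up 60.0%, 53.3%, 76.7%, 56.7% and 43.3% of the last 30 bases of these introns, in that order. EXOSC10 intron 15, with 157 bases the shortest listed intron of its gene, is shown whole, with the opening GT and closing AG in capitals. This intron and intron 20 were chosen after their values were seen.
EXOSC10 intron 15, minus strand, chr1:11077444-11077600: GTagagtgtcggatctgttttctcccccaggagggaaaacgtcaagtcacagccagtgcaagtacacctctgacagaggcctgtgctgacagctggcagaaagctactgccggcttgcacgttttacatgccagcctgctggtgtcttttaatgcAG
A spliced read instead joins both exons. The joined exon ends are shown for 4 members whose spliced reads moved differently, 15 bases on each side, with the 2 bases on each side of the join in capitals.
EXOSC10 intron 16 removed: tcatcccaaccagTGGAtctgtgccagttc
EXOSC3 intron 1 removed: tctcagcagaagcGGTAtgttccagtaaaa
EXOSC8 intron 10 removed: gtcttcacaaaccAGGTggaagtgggctaa
DIS3 intron 11 removed: tatctttgtgaaaAGAGgattgacatggtt

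Spliced reads of 6 of the 10 exosome genes fell with drug in the input and those of 2 rose. EXOSC10, EXOSC7, DIS3, EXOSC8, EXOSC1 and EXOSC5 fell, EXOSC3 and EXOSC4 rose, and EXOSC2 and EXOSC9 did not pass edgeR's quasi-likelihood test at an adjusted p of 0.05. Among all 8461 genes tested, 48.7% fell and 21.8% rose, so a call in itself was common. In these bulk libraries fewer cells holding a transcript and less of it per cell cannot be told apart. Reads scaled by depth give relative and not absolute amounts. The median log2 fold change was -0.85 over the 10 genes and -0.38 over all genes. When libraries were scaled by the median of ratios, which brings the median of all genes to 0.03, 5 members fell and 3 rose. Of the 8461 genes, 2914 fell and 3178 rose under that scaling.

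In J2 RNA, spliced reads of 5 members fell with drug (EXOSC10, EXOSC7, EXOSC1, EXOSC2 and EXOSC5) and those of 4 rose (DIS3, EXOSC8, EXOSC9 and EXOSC3). Of all genes, 39.5% fell and 34.6% rose. The median was -0.14 over the members and -0.03 over all genes. With median-of-ratios scaling EXOSC4 also rose, giving 5 members each way, while 3142 of all 8461 genes fell and 3214 rose. DIS3 and EXOSC8 thus fell in the input and rose in J2 RNA.

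**Figure D1:**
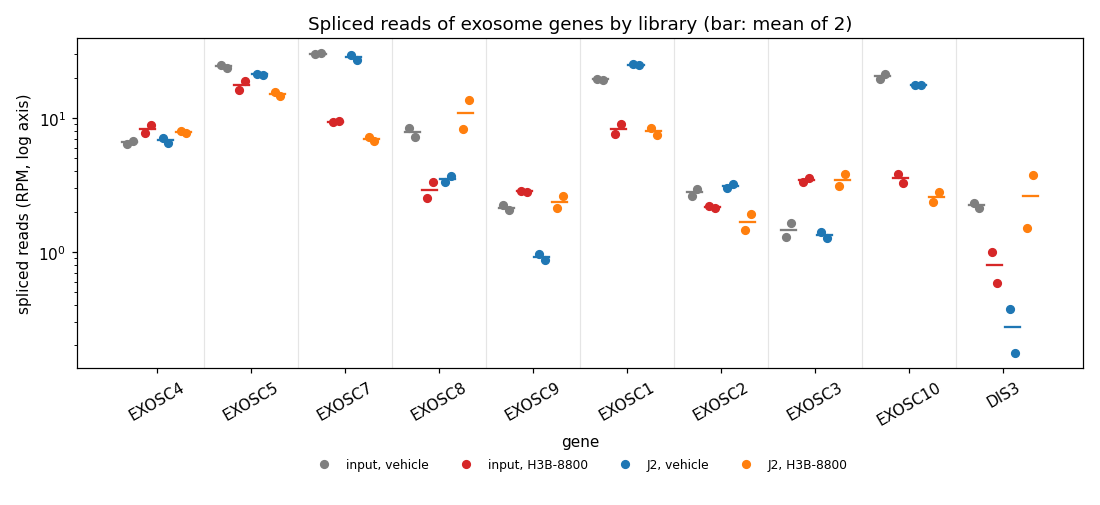
Spliced reads per gene (RPM, log axis) for the 10 exosome genes, with a point per library and a bar at the mean of the 2 replicates, coloured by group. EXOSC10 lies near 20 RPM in all 4 vehicle libraries and below 4 RPM in all 4 drug libraries, while DIS3 is lowest in J2 RNA with vehicle and spreads most in J2 RNA with drug.

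EXOSC10, the nuclear exonuclease, lost most of its spliced reads with drug. It had 19.7 and 21.2 RPM in the input with vehicle and 3.85 and 3.25 RPM in the input with drug. In J2 RNA it had 17.6 and 17.8 RPM with vehicle and 2.34 and 2.79 RPM with drug. Both drug libraries lay far below both vehicle libraries in each RNA. The fall was 5.76-fold in the input (log2 fold change -2.53 ± 0.12 SE, edgeR adjusted p = 8.72e-08) and 6.88-fold in J2 RNA (-2.78 ± 0.12, adjusted p = 6.79e-08).

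In the input the fall of EXOSC10 ran along the whole transcript. Of its 22 listed introns, 21 had at least 20 spliced reads over both vehicle libraries of the input, and all 21 had less with drug, with ratios of drug to vehicle from 0 to 0.456 and a median of 0.119. The least reduced was the first junction, at 0.456. In J2 RNA all 14 such junctions were lower, from 0.0347 to 0.325 of the vehicle level. Among the junctions with fewer reads there, introns 7, 8 and 9 were higher with drug. They went from 0.036 to 0.049, from 0.009 to 0.048 and from 0.009 to 0.039 RPM. Junctions within this one transcript share its RNA and are not independent.

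DIS3, the processive exonuclease of the core, had 111 and 109 spliced reads with vehicle in the input, against 47 and 28 with drug. J2 RNA held 20 and 10 with vehicle, against 75 and 200 with drug. The drug libraries were below the vehicle libraries in the input and above them in J2 RNA, where the 2 drug libraries themselves differed strongly. In the input DIS3 fell 2.81-fold (-1.49 ± 0.47, edgeR adjusted p = 0.0172), but without input vehicle replicate 1 or input drug replicate 2 the adjusted p was 0.064 or 0.13. In J2 RNA DIS3 rose 9.56-fold (3.26 ± 0.52, adjusted p = 0.000326), and the log2 value was 2.44 without J2 drug replicate 2 and 3.89 without J2 vehicle replicate 1. Spliced reads were few at every junction of DIS3, at most 12 in a library of the input with vehicle at intron 11, the best covered one.

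**Figure D2:**
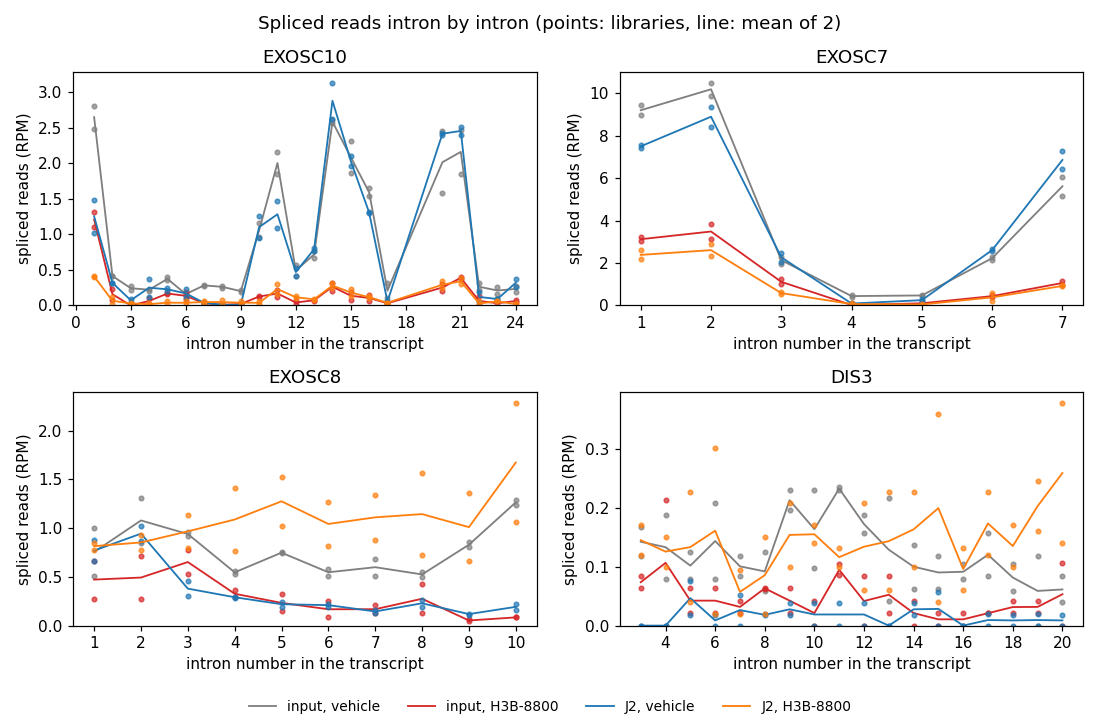
Spliced reads (RPM) at each listed intron, numbered from the 5′ end of the transcript, for EXOSC10, EXOSC7, EXOSC8 and DIS3, with points for libraries and lines through the mean of 2 replicates. At most introns of EXOSC10 and EXOSC7 the drug line lies below the vehicle line of the same RNA, whereas in EXOSC8 and DIS3 the J2 RNA with drug lies above the J2 RNA with vehicle at nearly every intron.

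Of the cap proteins, EXOSC1 fell and EXOSC3 rose in both RNAs. EXOSC1 had 19.7 and 19.4 RPM in the input with vehicle against 7.66 and 8.98 RPM with drug. J2 RNA held 25.2 and 24.7 RPM against 8.50 and 7.43 RPM. The groups did not overlap, and the falls were 2.35-fold in the input (-1.23 ± 0.10, edgeR adjusted p = 3.76e-06) and 3.13-fold in J2 RNA (-1.65 ± 0.10, adjusted p = 4.92e-07). All 7 of its junctions were lower with drug in each RNA.

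EXOSC3, whose protein binds RNA at the entry of the channel, is represented by 1 listed intron. Its spliced reads numbered 62 and 84 with vehicle in the input, against 156 and 171 with drug. J2 RNA held 75 and 73 with vehicle, against 155 and 202 with drug. Every drug library was above every vehicle library. The rise was 2.34-fold in the input (1.22 ± 0.21, edgeR adjusted p = 0.000502) and 2.56-fold in J2 RNA (1.36 ± 0.21, adjusted p = 0.000229).

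EXOSC2, the remaining cap gene, had 2.63 and 2.96 RPM in the input with vehicle and 2.21 and 2.13 RPM with drug, a difference that did not pass the test (-0.37, edgeR adjusted p = 0.123). In J2 RNA it had 2.98 and 3.21 RPM with vehicle and 1.46 and 1.91 RPM with drug, 1.84-fold lower (-0.88 ± 0.20, adjusted p = 0.00264).

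In the ring, EXOSC7 fell most. Its spliced reads were 29.9 and 30.7 RPM in the input with vehicle and 9.28 and 9.44 RPM with drug. In J2 RNA they were 29.7 and 27.3 RPM with vehicle and 7.28 and 6.72 RPM with drug. Replicates lay close together and the groups were far apart, with a 3.24-fold fall in the input (-1.70 ± 0.08, edgeR adjusted p = 8.13e-08) and a 4.07-fold fall in J2 RNA (-2.03 ± 0.08, adjusted p = 3.99e-08). In the input the first 3 junctions kept 0.340, 0.342 and 0.522 of their vehicle level, and the last 4 kept 0.0475 to 0.221.

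EXOSC5, another ring subunit, fell 1.38-fold in the input and 1.40-fold in J2 RNA. It had 24.9 and 23.7 RPM in the input with vehicle against 16.3 and 19.0 RPM with drug, and 21.4 and 21.1 RPM against 15.7 and 14.6 RPM in J2 RNA. Both falls passed (-0.46 ± 0.09, edgeR adjusted p = 0.00109, and -0.49 ± 0.09, adjusted p = 0.000717). Under TMM or median-of-ratios scaling the input value was -0.18 or -0.05 and no longer passed.

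EXOSC4, a further ring subunit, had 6.40 and 6.78 RPM in the input with vehicle and 7.70 and 8.90 RPM with drug. The rise of 1.26-fold (0.33 ± 0.12, edgeR adjusted p = 0.0274) did not pass without input vehicle replicate 1 (adjusted p = 0.14), input vehicle replicate 2 (0.073) or input drug replicate 2 (0.15). In J2 RNA EXOSC4 had 7.09 and 6.54 RPM with vehicle and 7.98 and 7.75 RPM with drug (0.21, adjusted p = 0.131).

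EXOSC8 fell in the input and rose in J2 RNA. It had 8.46 and 7.20 RPM in the input with vehicle and 2.53 and 3.31 RPM with drug. J2 RNA held 3.32 and 3.67 RPM with vehicle and 8.28 and 13.7 RPM with drug. The groups did not overlap in either RNA, with a 2.67-fold fall in the input (-1.42 ± 0.24, edgeR adjusted p = 0.000471) and a 3.14-fold rise in J2 RNA (1.65 ± 0.23, adjusted p = 0.000128). All 10 junctions were lower with drug in the input, from 0.0634 to 0.694 of the vehicle level. In J2 RNA 7 of the 8 junctions with at least 20 reads were higher, with ratios from 0.904 at intron 2 to 8.70 at intron 10 and larger ratios from intron 3 on.

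EXOSC9, a ring subunit first known as an autoantigen, had 2.25 and 2.04 RPM in the input with vehicle and 2.87 and 2.79 RPM with drug. This difference did not pass (0.40, edgeR adjusted p = 0.099), although it did with TMM scaling (0.68, adjusted p = 0.0082) and with scaling by the median of ratios (0.81, adjusted p = 0.0028). In J2 RNA it had 0.962 and 0.877 RPM with vehicle and 2.12 and 2.62 RPM with drug, 2.58-fold higher (1.37 ± 0.21, adjusted p = 0.000268). The sum joins junctions that moved differently. Of the 3 with at least 20 vehicle reads in the input, intron 1 was at 2.36 of its vehicle level with drug. Introns 9 and 11 were at 0.697 and 0.663. In J2 RNA only intron 1 had that many reads, at 1.24. Every other listed junction had fewer and was higher with drug there.

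**Figure D3:**
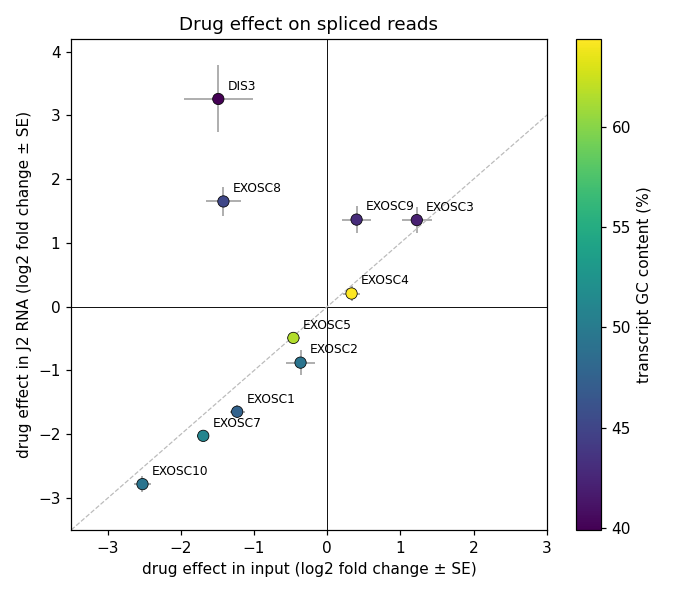
Drug effect on spliced reads (log2 fold change ± SE) in the input (x axis) and in J2 RNA (y axis) for the 10 exosome genes, coloured by the GC content of the transcript, with a dashed line where both effects are equal. Most members lie near the line, DIS3 and EXOSC8 lie in the upper left quadrant, and EXOSC9 lies above the line.

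The drug effect differed between J2 RNA and input for 5 of 10 members by the interaction term, the J2 effect less the input effect. Of all genes, 35.8% had a positive and 13.8% a negative interaction, with a median of 0.28. DIS3 (4.75 ± 0.71, edgeR adjusted p = 0.000612), EXOSC8 (3.07 ± 0.33, adjusted p = 0.000154) and EXOSC9 (0.96 ± 0.29, adjusted p = 0.021) were positive. EXOSC1 (-0.42 ± 0.14, adjusted p = 0.0368) and EXOSC7 (-0.33 ± 0.11, adjusted p = 0.036) were negative, and each of these 2 lost the call without most single libraries. EXOSC9 lost it without either input vehicle library, input drug replicate 2 or J2 vehicle replicate 2. Scaled by the median of ratios, 2 members were positive and 6 negative, beside 1817 positive and 2189 negative of all 8461 genes.

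Members also differed between RNAs in vehicle-treated cells. With vehicle, J2 RNA held less spliced DIS3 (8.05-fold, -3.01 ± 0.53, edgeR adjusted p = 0.000941), EXOSC9 (2.33-fold, -1.22 ± 0.22, adjusted p = 0.000966) and EXOSC8 (2.24-fold, -1.16 ± 0.23, adjusted p = 0.00202) than the input, and slightly more EXOSC1 (0.35 ± 0.10, adjusted p = 0.011). Of all genes, 44.3% were lower in J2 RNA and 16.4% higher. The EXOSC1 difference did not pass without either input vehicle library or J2 vehicle replicate 1 (adjusted p = 0.054, 0.065 and 0.07). Scaled by the median of ratios, 4 members were higher and 3 lower, beside 3049 higher and 2280 lower of all 8461 genes.

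With drug, EXOSC8 (1.91 ± 0.24, edgeR adjusted p = 0.000115) and DIS3 (1.74 ± 0.47, adjusted p = 0.0105) were higher in J2 RNA than in the input. EXOSC7 (-0.42 ± 0.08, adjusted p = 0.00224) and EXOSC10 (-0.47 ± 0.13, adjusted p = 0.014) were lower. Of all genes, 28.2% were higher and 27.4% lower. DIS3 did not pass without input drug replicate 2 (1.40, adjusted p = 0.097) or J2 drug replicate 2 (0.92, adjusted p = 0.054), and EXOSC10 did not without input drug replicate 1 (-0.34, adjusted p = 0.087) or J2 drug replicate 1 (-0.35, adjusted p = 0.062). These comparisons share libraries with those of drug against vehicle.

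At the depth scaling used here, the members that rose with drug in J2 RNA were those of lowest GC content. DIS3 (39.9% GC in the transcript), EXOSC3 (42.0%), EXOSC9 (42.9%) and EXOSC8 (45.2%) rose, while the others, from EXOSC1 (47.6%) to EXOSC4 (64.4%), fell or did not pass the test. With median-of-ratios scaling EXOSC4, the member of highest GC content, rose as well (0.28, edgeR adjusted p = 0.038). DIS3, EXOSC9 and EXOSC8 were also the 3 members with less spliced RNA in J2 than in input with vehicle. The part of base composition in these differences was not tested.

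Intronic reads per gene were tested for the 4 members that passed the filter of 1 RPM in 2 libraries: EXOSC1, EXOSC4, EXOSC8 and EXOSC10. EXOSC4 and EXOSC10 reached 1 RPM in drug libraries only, and EXOSC8 would not have passed on its vehicle libraries alone. The filter thus favours genes whose intronic reads rise with drug, and the calls below depend on it. EXOSC4 had 18 and 10 intronic reads in the input with vehicle and 108 and 115 with drug, and 15 and 12 against 99 and 91 in J2 RNA. EXOSC10 had 30 and 42 against 106 and 100 in the input, and 7 and 15 against 98 and 214 in J2 RNA. EXOSC8 had 74 and 50 against 180 and 188 in the input, and 47 and 40 against 187 and 249 in J2 RNA. EXOSC1 had 44 and 47 against 41 and 52 in the input, and 65 and 44 against 49 and 43 in J2 RNA, and its groups overlapped, unlike those of the other 3 genes.

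Intronic reads of EXOSC4, EXOSC8 and EXOSC10 rose with drug in both RNAs. The rises in the input were 8.22-fold for EXOSC4 (3.04 ± 0.33, edgeR adjusted p = 3.19e-09), 3.08-fold for EXOSC8 (1.62 ± 0.23, adjusted p = 3e-07) and 2.98-fold for EXOSC10 (1.58 ± 0.32, adjusted p = 5.43e-05). In J2 RNA they were 7.45-fold for EXOSC4 (2.90 ± 0.34, adjusted p = 8.42e-09), 5.32-fold for EXOSC8 (2.41 ± 0.24, adjusted p = 3.43e-10) and 14.9-fold for EXOSC10 (3.90 ± 0.37, adjusted p = 1.8e-10). EXOSC1 did not pass in the input (0.09, adjusted p = 0.799) or in J2 RNA (-0.15, adjusted p = 0.647). Of all 3992 genes tested, 78.3% rose and 6.51% fell in the input, and 83.7% rose and 5.74% fell in J2 RNA, with medians of 1.73 and 2.20. These genes passed the same filter, which favours rises with drug.

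Relative to that general rise the members stood differently. With median-of-ratios scaling, which takes it out, EXOSC4 was still higher in the input (1.36, edgeR adjusted p = 0.0012), EXOSC8 (-0.06) and EXOSC10 (-0.10) were near 0, and EXOSC1 was lower (-1.59, adjusted p = 6.1e-05). In J2 RNA EXOSC10 was higher (1.75, adjusted p = 0.00042) and EXOSC1 lower (-2.31, adjusted p = 1.9e-07), while EXOSC4 (0.75) and EXOSC8 (0.25) did not pass.

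The interaction of the intronic reads passed for EXOSC10 and rested on its intron 9, described below. Over all listed introns it was 2.32 ± 0.52 (edgeR adjusted p = 0.00143), against 25.7% of genes with a positive and 2.93% with a negative interaction. With intron 9 left out, an alternative chosen after seeing the data, it was 0.27 (adjusted p = 0.80), where intronic reads numbered 21 without drug and 110 with it for input libraries, and 16 without drug and 99 with it for J2 libraries. The drug effects themselves still passed without intron 9, at 2.43 in the input and 2.70 in J2 RNA (adjusted p = 1.64e-05 and 6.82e-06). Without J2 drug replicate 2 the interaction over all introns was 1.70, and without J2 vehicle replicate 2 it was 2.91. With vehicle, EXOSC10 had 3.61-fold fewer intronic reads in J2 than in the input (-1.85 ± 0.44, adjusted p = 0.00167), where 29.4% of genes were lower and 7.84% higher. This too rested on intron 9, without which the value was -0.54 (adjusted p = 0.49). With drug, 0 of 4 members differed between J2 and input by edgeR, 0 had an unadjusted p under 0.05 and 0 passed with DESeq2, against 45.3% of all genes.

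**Figure D4:**
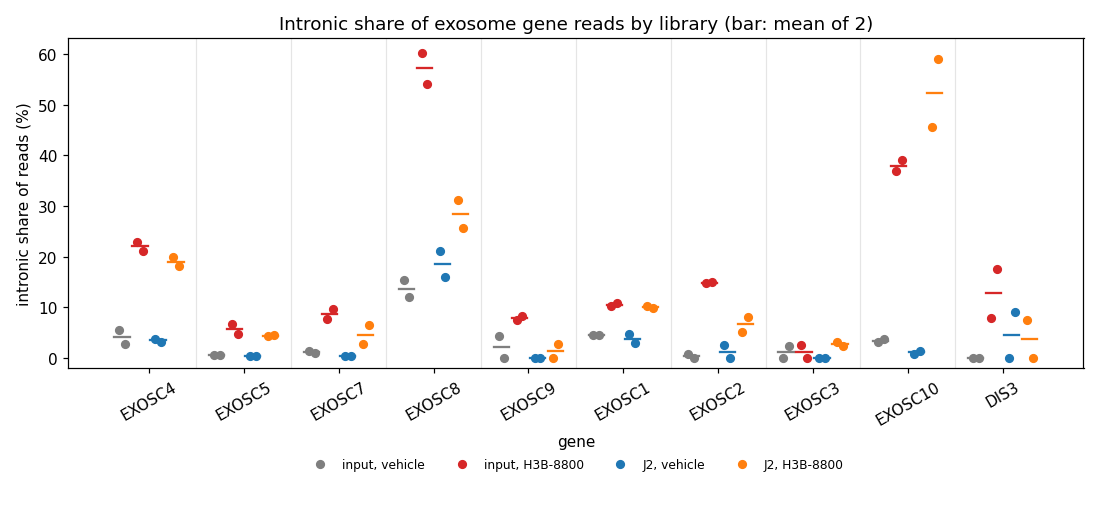
Intronic reads as a percentage of intronic plus spliced reads for the 10 exosome genes, with a point per library and a bar at the mean of the 2 replicates. EXOSC8 and EXOSC10 reach the highest shares with drug, and EXOSC3 stays below 4% in every library.

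The intronic share is the percentage of a gene's intronic plus spliced reads that are intronic. EXOSC10 went from 3.41 ± 0.48% (SD, n = 2) to 38.0 ± 1.51% with drug in the input, and from 1.10 ± 0.50% to 52.3 ± 9.57% in J2 RNA. EXOSC8 went from 13.7 ± 2.42% to 57.2 ± 4.26% in the input, and from 18.6 ± 3.54% to 28.4 ± 3.91% in J2 RNA. EXOSC4 went from 4.17 ± 1.93% to 22.1 ± 1.25% in the input and from 3.48 ± 0.51% to 19.0 ± 1.24% in J2 RNA. The shares of these 3 genes did not overlap between drug and vehicle in either RNA. Nor did those of EXOSC1, EXOSC2, EXOSC5 and EXOSC7. How many of all genes did so was not counted.

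With drug the other members had lower shares in both RNAs. EXOSC1 went from 4.49 ± 0.07% to 10.5 ± 0.38% in the input and from 3.84 ± 1.14% to 10.1 ± 0.35% in J2 RNA. EXOSC2 went from 0.39 ± 0.56% to 14.9 ± 0.17% in the input, EXOSC7 from 1.13 ± 0.34% to 8.69 ± 1.51%, and EXOSC5 from 0.58 ± 0.12% to 5.76 ± 1.35%. EXOSC3 had 1.16 ± 1.64% with vehicle and 1.25 ± 1.77% with drug, from at most 4 intronic reads in a library of the input. DIS3 had no intronic read beside 220 spliced reads in the vehicle libraries of the input, which allows a share of up to 1.36% by counting error alone, and 4 and 6 intronic reads with drug. No intronic read was counted in J2 RNA with vehicle for EXOSC3 (limit 2.03%) or EXOSC9 (limit 2.97%).

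The ratio of intronic to spliced reads, tested with limma on the log2 ratio after adding 1 read to both counts, rose with drug in the input for 8 of 10 members and fell for none, against 56.4% of 8853 genes higher and 2.03% lower. The median was 3.05 over the members and 1.65 over all genes. The largest values were those of EXOSC2 (4.17 ± 0.85, adjusted p = 0.00667), DIS3 (4.14 ± 1.38, adjusted p = 0.0414) and EXOSC10 (4.09 ± 0.41, adjusted p = 0.000401). EXOSC5 (3.22), EXOSC8 (3.06), EXOSC7 (3.03), EXOSC4 (2.69) and EXOSC1 (1.31) also rose. EXOSC9 (2.01, adjusted p = 0.11) and EXOSC3 (-0.80, adjusted p = 0.432) did not pass. The EXOSC2 value rests on 1 intronic read in the input with vehicle against 36 with drug, so the added read weighs on it. The DIS3 value rests on 10 intronic reads and did not pass when any one of 6 of the 8 libraries was left out, or with the replicate number as a block (adjusted p = 0.063). Without input vehicle replicate 1 EXOSC9 passed (3.27, adjusted p = 0.024), and without input drug replicate 1 EXOSC3 was lower (-2.03, adjusted p = 0.033).

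In J2 RNA the ratio rose for 6 members and fell for none, against 54.8% of genes higher and 4.89% lower. The median was 2.07 over the members and 1.60 over all genes. EXOSC10 had the largest rise (6.56 ± 0.41, limma adjusted p = 8.57e-05), followed by EXOSC7 (3.50), EXOSC5 (3.34), EXOSC2 (2.64), EXOSC4 (2.62) and EXOSC1 (1.53). EXOSC2 did not pass when any one of 5 of the 8 libraries was left out (adjusted p from 0.058 to 0.13). EXOSC8 (0.78, adjusted p = 0.0798), EXOSC3 (1.34), EXOSC9 (-0.09) and DIS3 (-2.12) did not pass. With the replicate number as a block EXOSC8 passed (adjusted p = 0.045), and without J2 drug replicate 1 DIS3 was lower (-4.23, adjusted p = 0.015).

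Between J2 and input no ratio passed by limma, with vehicle (0 of 10, 3 at an unadjusted p under 0.05, 7.79% of all genes called) or with drug (0 of 10, 2 unadjusted, 2.7% of all genes). The interaction of the ratio passed for 0 of 10 (3 unadjusted), against 0.0226% of all genes. With the filter set on intronic reads, limma called 1, 1 and 2 members. The share of all genes was not computed for that filter, and the shares above do not apply to it.

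Introns of one gene behaved unequally. Of the 86 listed introns, 32 had no intronic read in any library and 22 had at least 20 over the 8 libraries. The ratio could be tested at 34 introns and rose with drug at 25 in the input and 21 in J2 RNA, at 19 of them in both, and fell at none. Over all 36304 introns tested, 43.8% rose in the input and 43.9% in J2 RNA, and 3.07% and 5.66% fell. How many of all introns rose in both was not counted, so the 19 cannot be set against a share. The ratio also rises when only spliced reads are lost. Of the 25 called in the input, 4 had no intronic read in any of the 4 libraries compared, 19 had more intronic reads in both drug libraries than in either vehicle library, and 22 had fewer spliced reads in both drug libraries than in either vehicle library. Both changes held at 16. Of the 21 called in J2 RNA, 4 had no intronic read, 12 had more intronic reads, 18 had fewer spliced reads and 9 had both. These counts were not taken for introns of other genes, so they describe the members only. Without input vehicle replicate 2, 16 introns were called in the input.

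The ratio passed at all 9 tested introns of EXOSC10 in both RNAs, but introns 1 and 11 had no intronic read in either RNA and intron 10 had none in the input, so there the call reflects the loss of spliced reads alone. Intron 9, of 4569 bases on chromosome 1 from 11082879 to 11087447, made up 70.8% of all EXOSC10 intronic reads for vehicle-treated input (17 and 34 reads) and 46.6% for drug-treated input (48 and 48 reads). J2 RNA held 2 and 4 reads of intron 9 with vehicle, against 56 and 157 with drug, which were 27.3% and 68.3% of the gene's intronic reads. Several junctions of EXOSC10 had few spliced reads. Introns 7 and 8 had 14 and 14 and 12 and 14 in the vehicle libraries of the input, and at most 4 in any other library. The junction of intron 9 likewise had 9 and 11 spliced reads in the vehicle libraries of the input and at most 3 elsewhere. Its ratio rose in the input (3.42 ± 0.79, limma adjusted p = 0.0128), but not without input vehicle replicate 1 or either input drug library (adjusted p = 0.069, 0.058 and 0.058). Without intron 9 the intronic share of EXOSC10 still went from 1.05 ± 0.44% to 24.7 ± 0.53% in the input and from 0.80 ± 0.38% to 27.4 ± 0.72% in J2 RNA.

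Several other introns of EXOSC10 also held a larger share of intronic reads with drug. Exons of other EXOSC10 transcripts lie in or span introns 10, 15, 16 and 20, and reads of such exons could not be separated from retained intron. The same holds for, among others, EXOSC1 introns 1 and 2, EXOSC3 intron 1, EXOSC4 intron 1, EXOSC5 intron 3, EXOSC7 introns 1, 2 and 5, EXOSC8 introns 1 and 4 and EXOSC9 intron 1. Intron 16, whose end and junction are printed above, had 4 and 0 intronic and 74 and 84 spliced reads in the vehicle libraries of the input, against 17 and 15 intronic and 7 and 3 spliced reads with drug (6.74 ± 0.82, limma adjusted p = 0.00102). In J2 RNA it had 3 and 2 intronic and 70 and 74 spliced reads with vehicle, against 8 and 8 intronic and 5 and 7 spliced reads with drug. The short intron 15 had 1 and 0 intronic reads beside 111 and 95 spliced reads in the vehicle libraries of the input, and 3 and 9 beside 9 and 4 with drug (6.04 ± 0.86, adjusted p = 0.00192). Intron 14 had 5 and 4 intronic reads beside 125 and 131 spliced reads with vehicle, and 13 and 12 beside 15 and 10 with drug (4.58 ± 0.46, adjusted p = 0.000504). Introns 1 to 8 of EXOSC10 had no intronic read in any library. Introns 20 to 23 overlap AL109811.1 and intron 1 overlaps AL109811.2 on the other strand, and the strand setting of the counting is not given in the sources used here.

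**Figure D5:**
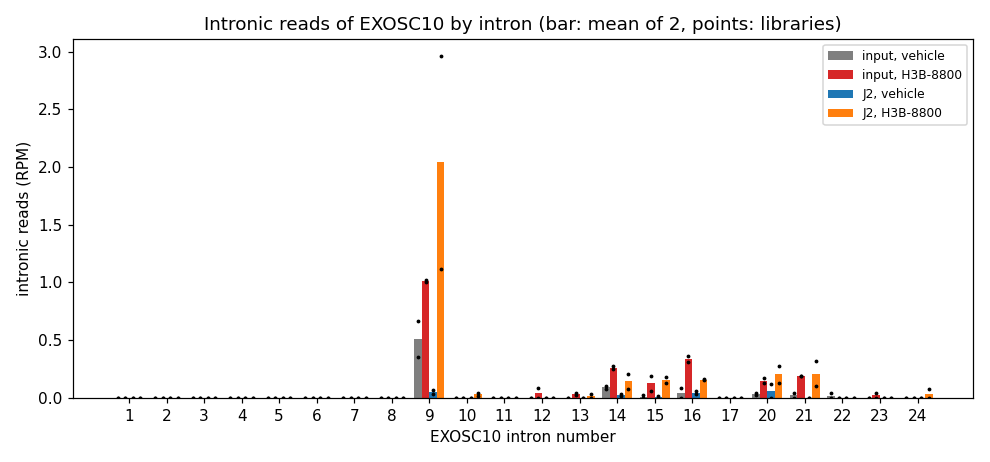
Intronic reads (RPM) at each listed intron of EXOSC10, with bars at the mean of 2 libraries and points for the libraries. Intron 9 holds the most reads in every group but J2 RNA with vehicle, its 2 J2 libraries with drug differ widely, and introns 14, 15, 16, 20 and 21 have higher means with drug in both RNAs.

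EXOSC8 held its intronic reads at several introns. Intron 1 (1450 bases) had 37 and 31 intronic reads in the input with vehicle and 90 and 91 with drug, and 47 and 34 against 106 and 151 in J2 RNA. Its ratio rose in the input (2.15, limma adjusted p = 0.018), though not without input vehicle replicate 1 or input drug replicate 1, and in J2 RNA (1.64, adjusted p = 0.046), though not under 6 of the 8 omissions of a library. Intron 10 had 3 and 9 intronic reads beside 62 and 63 spliced reads in the vehicle libraries of the input, and 14 and 19 beside 4 and 4 with drug (5.12 ± 0.90, adjusted p = 0.00438). In J2 RNA with drug the same intron 10 had 44 and 72 intronic and 53 and 121 spliced reads, both above the 0 and 4 intronic and 12 and 9 spliced reads with vehicle. Intron 4 had 22 and 4 intronic reads in the input with vehicle and 33 and 47 with drug (2.68, adjusted p = 0.047), and the call was lost on leaving out most single libraries.

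EXOSC4 held nearly all of its intronic reads in intron 1, of 1043 bases on chromosome 8 from 144078900 to 144079942. These were 18 and 10 reads in the input with vehicle and 107 and 112 with drug, and 15 and 12 against 98 and 91 in J2 RNA. Its spliced reads in the input overlapped, at 143 and 172 with vehicle and 148 and 186 with drug. The ratio rose by 2.85 ± 0.45 (limma adjusted p = 0.00273) in the input and by 2.22 (adjusted p = 0.0069) in J2 RNA. The intron overlaps MIR6847 on the same strand and AC109322.1 on the other strand, and reads of these genes could not be separated.

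EXOSC1 was unlike the other members in its intron 2, of 2420 bases, which held fewer intronic reads with drug. There were 19 and 23 in the input with vehicle and 12 and 6 with drug, and 32 and 27 against 4 and 4 in J2 RNA. Its spliced reads were lower too, 107 and 98 in the input against 285 and 307, and the ratio did not pass (0.32, limma adjusted p = 0.5, in the input, and -0.98, adjusted p = 0.063, in J2 RNA, which passed with adjusted p = 0.037 without either input drug library). Intron 6 had 4 and 0 intronic reads in the input with vehicle and 11 and 7 with drug, and 7 and 6 against 18 and 4 in J2 RNA. Intron 7 had 0 and 0 against 2 and 12 in the input, and 1 and 0 against 6 and 4 in J2 RNA. The summed intronic reads of EXOSC1 thus join introns that moved in different directions. At intron 1 of EXOSC1, with 107 bases, intronic reads stayed at 6 to 9 per input library. Spliced reads there went from 245 and 283 to 84 and 66, and the ratio rose (2.15, limma adjusted p = 0.011). That call was lost without input vehicle replicate 2 or input drug replicate 2 (adjusted p = 0.061 and 0.059).

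Intron 5 of EXOSC7, of 3682 bases, had 8 and 10 intronic and 21 and 26 spliced reads in the vehicle libraries of the input, against 18 and 29 intronic and 2 and 8 spliced reads with drug, and was too low for the test. In EXOSC5, intron 4 had 2 and 4 intronic reads in the input with vehicle and 17 and 24 with drug (3.03, limma adjusted p = 0.0013), beside 290 and 253 against 155 and 212 spliced reads. Intron 1 of EXOSC2 had no intronic read in the input with vehicle and 9 and 15 with drug (3.78 ± 0.85, adjusted p = 0.0114), and did not pass without input vehicle replicate 2 or input drug replicate 2 (0.06 and 0.066). Intron 1 of EXOSC9, whose spliced reads went from 41 and 38 to 84 and 95 in the input, had 2 intronic reads over all 8 libraries (-0.37, adjusted p = 0.58).

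Levels were compared between genes only per listed junction, as spliced RPM in the input with vehicle. EXOSC5 was highest (4.86 ± 0.18 SD, n = 2), followed by EXOSC7 (4.33 ± 0.08), EXOSC4 (3.30 ± 0.14), EXOSC1 (2.79 ± 0.03) and EXOSC3 (1.47 ± 0.25). EXOSC10 (0.93 ± 0.05), EXOSC8 (0.78 ± 0.09) and EXOSC2 (0.70 ± 0.06) came next, and EXOSC9 (0.21 ± 0.01) and DIS3 (0.12 ± 0.01) were lowest. EXOSC8 overlapped EXOSC2 within 1 SD, and its distance to EXOSC10 was about the sum of both SDs. Listed junctions differ in coverage within a gene, so the order is a description.

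Cofactors and partners of the exosome, called cofactors here, were counted from a list of 20 genes. Of these, 18 were listed and 15 tested for spliced reads. In the input 3 rose and 5 fell with drug, with a median of -0.19, and in J2 RNA 9 rose and 1 fell, with a median of 0.99. Of all genes tested, 21.8% rose and 48.7% fell with drug in input RNA, while J2 RNA had 34.6% higher and 39.5% lower. The interaction was positive for 10 cofactors and negative for none, with a median of 1.07, beside 35.8% positive, 13.8% negative and a median of 0.28 over all genes. Scaled by the median of ratios, 6 cofactors rose and 2 fell in the input, and 11 rose and 1 fell in J2 RNA. The interaction was then positive for 7 and negative for 2. Under that scaling 3178 of all 8461 genes rose and 2914 fell in the input, and 3214 rose and 3142 fell in J2 RNA. The interaction was positive for 1817 genes and negative for 2189. SRRT, which links the nuclear cap-binding complex to nuclear decay, had 22.2 and 22.6 RPM in the input with vehicle and 103 and 107 RPM with drug (2.23 ± 0.06, edgeR adjusted p = 6.08e-09). NCBP2, the small subunit of the cap-binding complex, had 10.5 and 11.8 RPM against 17.3 and 18.4 RPM (0.68 ± 0.09, adjusted p = 0.000101). WDR61 and TTC37, both of the SKI complex that serves the cytoplasmic exosome, went from 2.63 and 3.04 to 0.43 and 0.35 RPM (-2.85 ± 0.28, adjusted p = 1.15e-05) and from 8.46 and 8.53 to 1.83 and 1.56 RPM (-2.32 ± 0.34, adjusted p = 0.000181). In J2 RNA TTC37, like DIS3 and EXOSC8, was higher with drug (1.59 ± 0.35, adjusted p = 0.00219).

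The genes whose spliced reads followed EXOSC10 most closely over the 8 libraries, by the root mean square difference of centred log2(RPM + 1) profiles among 4729 genes, were SARM1 (0.109), TRPC4AP (0.110) and PHYKPL (0.114). TRPC4AP had 19.3 RPM in the input with vehicle and 3.44 RPM with drug, and 16.7 and 2.94 RPM in J2 RNA. DIS3 was most like SNRPB2 (0.111), IFI16 (0.141) and MTDH (0.146). SNRPB2 had 6.81 RPM in the input with vehicle, 3.64 RPM with drug, 2.11 RPM in J2 RNA with vehicle and 8.72 RPM with drug.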

How the data were processed

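The 8 libraries, as 4 groups of 2, were analysed. Per the submitters' processing notes, reads were aligned with HISAT2 2.0.4, and the notes name the builds hg38 and mm10. The counting program, strand setting and choice of introns are not given in the sources used here. The authors deposited 3 values per intron without a header: a count, a second count never below the first, and an RPKM that the authors derived from the first count, using the length of the intron and 1 whole-number depth per library. That the first count is intronic and the excess of the second spliced was inferred from the values. All 86 member introns matched introns of a GENCODE 29 transcript, and 18 of 142224 introns without the second count were left out.

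Counts were summed per gene. Spliced and intronic reads were tested with edgeR 4.0.16 (quasi-likelihood test, library size from the depth behind the RPKM, SE taken from the log2 fold change and the F statistic), and the ratio with limma 3.58.1 after adding 1 read. Features needed at least 1 RPM in at least 2 libraries (for the ratio, of both counts together). One fit held all 8 libraries with 4 group means. The p-values were adjusted by Benjamini-Hochberg over all features of a comparison, with a threshold of 0.05. Permuting 2 libraries against 2 cannot give a p below 0.333, so no permutation test was used. DESeq2 1.42.0, other scalings, filters and pseudocounts, a replicate block and each library left out were alternatives, and EXOSC10 without intron 9 was added after seeing the data. Scripts were tested on simulated data.

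All members are named. Introns named are up to 3 per gene with the most intronic reads, from 20 reads on, and the one with most reads in all. Up to 4 cofactors with the smallest p in the input, and 3 genes most like EXOSC10 and DIS3, are named. TTC37 in J2 RNA, EXOSC10 introns 15 and 20 and the other introns given with values fall outside this rule. They were picked with their values known. The members and lists were chosen with earlier results of these data known. A share of 0 is given with the limit that 3 counts allow, over the group, for counting error only.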

Additional observations from a re-analysis of the deposited data

Results flagged for a closer look

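The drug effect differed between J2 RNA and input RNA, by edgeR's interaction term, for 5 exosome genes in spliced reads and for 1 in intronic reads. For spliced reads the difference of the log2 fold changes was 4.75 for DIS3 and 3.07 for EXOSC8, both of which were lower with drug in the input and higher with drug in J2 RNA. It was 0.96 for EXOSC9, -0.42 for EXOSC1 and -0.33 for EXOSC7. For intronic reads it was 2.32 for EXOSC10, and 0.27 (adjusted p = 0.80) with intron 9 of that gene left out. Over all genes 35.8% had a positive and 13.8% a negative interaction for spliced reads, so 5 of 10 members is close to the share of all genes. Leaving out 1 library at a time, 2 to 5 members passed.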

How the results depend on the processing

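Direction and call were most stable for the spliced reads of EXOSC10, EXOSC7, EXOSC1, EXOSC3 and EXOSC8 with drug, which passed in both RNAs under every alternative run. Scaling moved the intronic reads in both RNAs. In the input, with TMM, median-of-ratios scaling and DESeq2, EXOSC1 was -1.57, -1.59 and -1.60, EXOSC10 -0.08, -0.10 and -0.10, and EXOSC8 -0.036, -0.060 and -0.061. In J2 RNA the calls of EXOSC4 and EXOSC8 were lost and EXOSC1 was called lower under all 3. EXOSC7 in spliced reads of J2 against input with vehicle became 0.29 with median-of-ratios scaling and 0.29 with DESeq2. With median-of-ratios scaling 7 members were called in spliced reads for J2 against input with vehicle and 8 for the interaction. Without a filter, intronic reads gave 6 members with drug in the input, 5 in J2 RNA, and between J2 and input 2 (vehicle) and 1 (drug). With the ratio's filter on intronic reads, 4 members were called in the input, between J2 and input 1 (vehicle) and 1 (drug), 2 for the interaction, and 3 introns in each RNA, since fewer features were tested. With the variance trend switched, the ratio between J2 and input gave 1 member (vehicle) and 1 (drug). Shares of all genes were not computed for these filter and variance settings. With intron 9 of EXOSC10 left out, 0 members were called in intronic reads for J2 against input with vehicle and 0 for the interaction, by edgeR. Where not stated, the cause was not tested.

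Leaving out 1 library at a time gave 6 to 8 members called for spliced reads in the input, 9 in J2 RNA, 3 to 5 and 3 to 4 between J2 and input (vehicle, then drug), and 2 to 5 for the interaction. For intronic reads it gave 3 with drug in each RNA, 1 to 2 and 0 to 1 for J2 against input, and 1 to 2 for the interaction. The ratio gave 7 to 8 members in the input, 5 to 6 in J2 RNA and 0 in the other comparisons. Intron by intron it gave 16 to 24 in the input and 15 to 20 in J2 RNA. A group left with 1 library is assumed to vary like the others. Libraries of the same replicate number deviated together only weakly or not at all (correlations of deviations from -0.0803 to 0.0984 over 6 pairs of groups). The largest value was that of input and J2 RNA with vehicle. Such correlations cannot settle whether these libraries share a culture. With the replicate numbers as a block, 8 members were called for spliced reads in the input, and of the single-feature results 4 lost and 2 gained the call. Low depth limits DIS3, EXOSC3 and EXOSC9, whose intronic reads were 17, 16 and 32 over all libraries.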
